A study of Homo sapiens with 9 samples.

Results

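The HOX genes of clusters A to D were followed in GIST-T1 cells, an established line of human gastrointestinal stromal tumour (GIST), a sarcoma of the gut wall. They were taken as every row of the expression table whose symbol is HOX, a cluster letter from A to D and a number, so that antisense and readthrough transcripts were left out. The rule matched 39 of the 23610 genes of the table, and 38 of them are described: 10 of HOXA, 10 of HOXB, 9 of HOXC and 9 of HOXD. PolyA RNA was sequenced in 9 libraries, 3 with an sgRNA against ETV1, 3 with an sgRNA against HAND1 and 3 with a control sgRNA against Luciferase, a sequence that human cells lack. ETV1 is an ETS family transcription factor and HAND1 a basic helix-loop-helix (bHLH) transcription factor of mesoderm. All 9 libraries came from the 1 cell line, and the labels name no nuclease, sgRNA sequence or clone. Whether replicates are separate cultures is also not in the labels, and p-values therefore reflect only how far these libraries differ, which could be technical variation. Levels are FPKM, fragments per kilobase of transcript, scaled to the mapped fragments of the library. The scaling to transcript length allows a rough comparison between genes, which is less sure where genes overlap.

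HOX proteins are homeodomain transcription factors that give cells their position along the body axis. Their genes lie in clusters, and the order of the genes along the chromosome follows the order of the body regions in which they are expressed in the embryo: low position numbers sit at the 3′ end and act in anterior regions, and high numbers sit at the 5′ end and act in posterior regions, including the hindgut and limbs. Genes with the same number in different clusters are paralogs. HOX proteins bind DNA together with PBX and MEIS proteins, retinoic acid induces many 3′ genes, and Polycomb and trithorax complexes hold the clusters silent or active.

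The libraries were of similar make-up, with 11283 to 11345 genes at 1 FPKM or more. Luciferase sgRNA replicate 3 stood apart, with a sum of FPKM of 538689 against 451286 to 479939 in the other 8 libraries, and with 12.2% of it in ribosomal protein genes against 8.51% to 9.63%. Both targeted transcripts were lower with their own sgRNA: the mean ETV1 level was 11.4 ± 0.571 FPKM, against 39.7 ± 2.42 in the controls, and the mean HAND1 level was 38.3 ± 2.25, against 114 ± 1.12 (SD over 3 libraries). Of 10 markers of GIST and interstitial cells of Cajal, the gut pacemaker cells, 9 had a mean of at least 1 FPKM, KIT at 192 and ANO1 at 169. All 8 blood and endothelial markers had a mean below 1 FPKM, as did 5 of 8 epithelial markers (KRT19 and KRT20 were listed at 0 in all 9 libraries, KRT18 was at 225) and 7 of 8 neuronal and glial markers (TUBB3 was at 58.5).

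In these cells HOX transcripts were spread unevenly over each cluster. Of the 38 genes, 24 had a mean of at least 1 FPKM over the 9 libraries (63.2%, against 48.1% of all genes in the table), 16 reached 5 FPKM and 11 reached 10 FPKM. HOXA11 had the highest level at 75.0 FPKM, which was above 89.3% of the genes tested. HOXD1, HOXC10, HOXB2, HOXD8, HOXB7, HOXD4, HOXB13, HOXA7, HOXC6 and HOXD13 followed, from 45.4 down to 10.2 FPKM. Of these, all but HOXB7, HOXB13 and HOXD13 overlap other genes in the RefSeq annotation (GRCh38.p14), which makes their order less sure. In the plot of levels by cluster position, strongly expressed genes stand directly beside neighbours near 0.

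**Figure D1:**
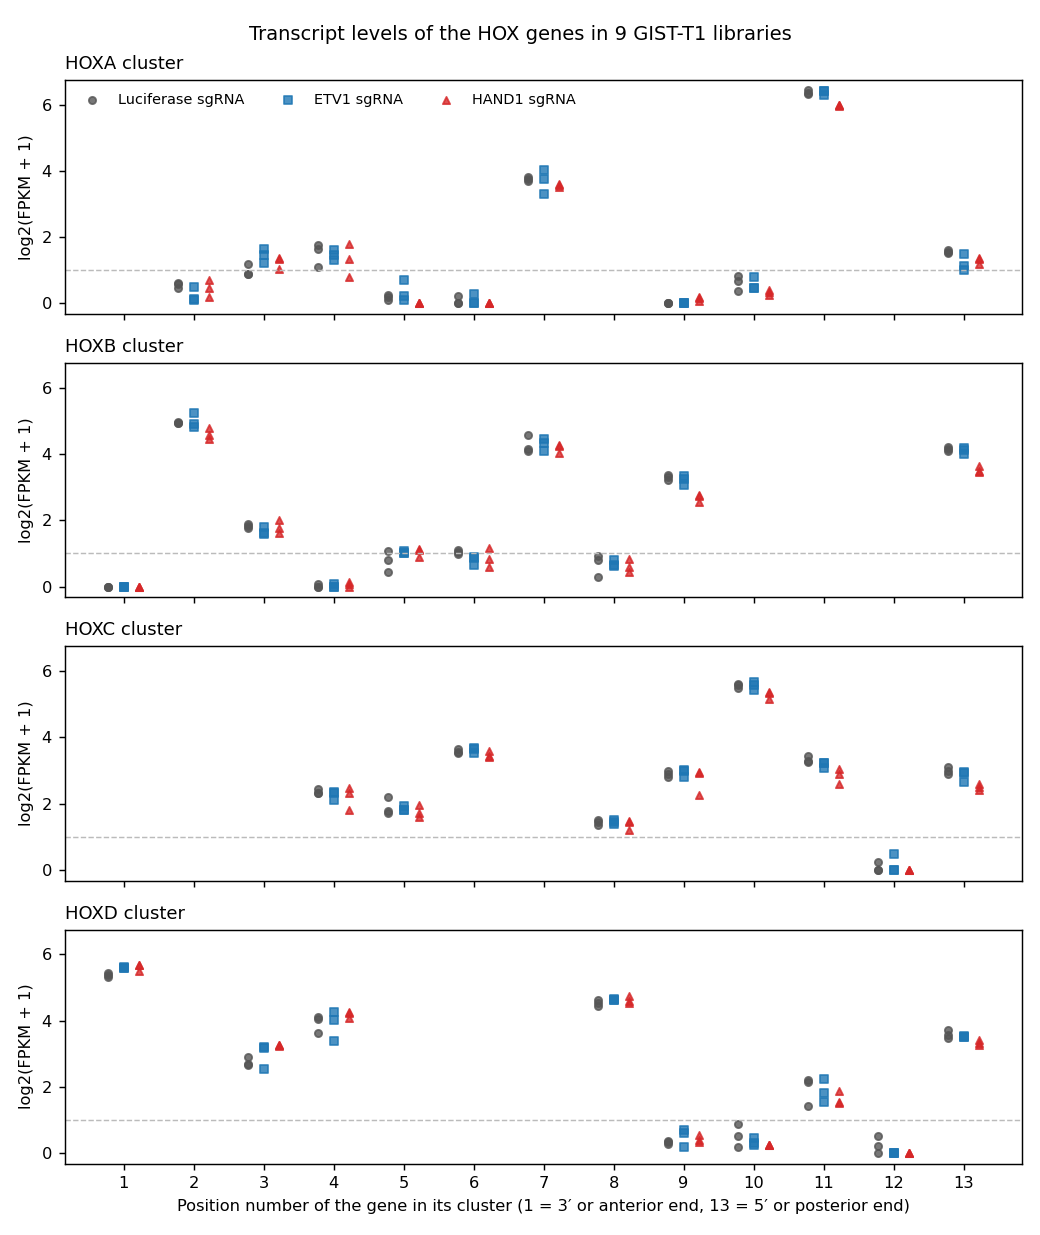
Level of each of the 38 HOX genes, as log2(FPKM + 1), against its position number in the cluster; each point is 1 library, coloured by sgRNA, and the dashed line marks 1 FPKM. HOXA11 (75.0 FPKM), HOXC10 (43.6), HOXD1 (45.4) and HOXB2 (28.2) stand out in their clusters, and HOXA9, HOXB1, HOXB4, HOXC12 and HOXD12 lie at or near 0.

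In the HOXA cluster a single gene carried most of the transcripts. HOXA11, a factor of limb, kidney and uterus development, was at 85.3, 80.5 and 78.7 FPKM in Luciferase sgRNA replicates 1 to 3, which was 81.4% of the summed level of the 10 HOXA genes there. Its neighbours HOXA10 (mean 0.437 FPKM, 0.200 to 0.776) and HOXA9 (at most 0.152 FPKM, listed at 0 in 4 libraries) had low listed levels. Both overlap the readthrough gene HOXA10-HOXA9 in the RefSeq annotation (GRCh38.p14), so reads may have been divided among them and silence is not shown. HOXA13, the most posterior gene, was at 1.58 FPKM. HOXA7 was the only other HOXA gene above 2 FPKM, at 11.8 FPKM (8.82 to 15.2). HOXA3 (1.37) and HOXA4 (1.75) lay just above 1 FPKM, and HOXA2 (0.348), HOXA5 (0.145) and HOXA6 (0.0432) lay below it.

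In the HOXB cluster 4 genes, HOXB2, HOXB7, HOXB9 and HOXB13, were above 5 FPKM, with low genes between them. HOXB2, an anterior gene of hindbrain patterning, was at 30.3, 29.9 and 29.4 FPKM with Luciferase sgRNA, and HOXB7 at 16.8, 16.2 and 22.7. HOXB13, a posterior gene also known as a cofactor of the androgen receptor in prostate, was at 17.7, 16.1 and 16.8 FPKM, and HOXB9 at 8.29, 8.83 and 9.25. Of the other genes HOXB3 had a mean of 2.41 FPKM over the 9 libraries, HOXB5 0.955, HOXB6 0.878 and HOXB8 0.593. HOXB4 did not exceed 0.109 FPKM in any library, and HOXB1 was listed at 0 in all 9.

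In the HOXC cluster 8 of 9 genes were at 1 FPKM or more. HOXC10, a gene of the lumbar region and hind limb, was at 47.7, 46.8 and 44.5 FPKM with Luciferase sgRNA and made up 52.3% of the summed HOXC level. HOXC6 had a mean of 10.8 FPKM over the 9 libraries, HOXC11 7.78, HOXC9 6.30, HOXC13 5.98, HOXC4 3.87, HOXC5 2.59 and HOXC8 1.67. HOXC12, which lies between HOXC11 and HOXC13, was listed at 0 in 7 libraries and reached 0.394 FPKM in 1. HOXC4, HOXC5 and HOXC6 overlap each other in the RefSeq annotation (GRCh38.p14), so reads may have been divided among them.

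In the HOXD cluster the highest gene, HOXD1, lay at the 3′ end, and the genes below 1 FPKM lay among the posterior genes. HOXD1 was at 39.3, 40.5 and 42.8 FPKM with Luciferase sgRNA, 41.7% of the summed HOXD level. HOXD8 had a mean of 23.3 FPKM over the 9 libraries, HOXD4 15.3, HOXD13 10.2, HOXD3 7.13 and HOXD11 2.59. HOXD9 (0.342), HOXD10 (0.304) and HOXD12 (0.0673) were below 1 FPKM. HOXD13 was thus above its neighbour HOXD12 in each of the 9 libraries, as HOXC13 was above HOXC12. HOXD3 overlaps HOXD4, and HOXD1 overlaps the non-coding gene HAGLR, which the table lists as HOXD-AS1 (20.1 FPKM), in the same annotation. The libraries were not stranded, so transcripts of opposite strands cannot be told apart where they overlap.

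The comparison of HAND1 sgRNA with Luciferase sgRNA asks which HOX transcripts differ between these libraries. Posterior HOX genes were lower with HAND1 sgRNA: HOXB13, HOXB9, HOXA11, HOXC13 and HOXC11 fell, by 23.6% to 37.6% in mean FPKM, and no HOX gene rose. These 5 were called among the 24 HOX genes tested, that is 20.8%, where limma called 6.60% of all 11348 genes tested (749, of which 417 or 3.67% rose and 332 or 2.93% fell). The test was limma on log2(FPKM + 1), two-sided, with Benjamini-Hochberg adjustment over all genes tested, and a gene was called at an adjusted p under 0.05. Fold changes below are on that log2 scale, which understates changes of low genes. In bulk RNA, fewer cells with a transcript and less transcript per cell cannot be told apart. The 10 GIST and Cajal cell markers, HAND1 among them, summed to 2510 to 2620 FPKM with HAND1 sgRNA, 2540 to 2600 with ETV1 sgRNA and 2700 to 2840 with Luciferase sgRNA. CD34 made up most of each sum, at a mean of 1680 FPKM with Luciferase sgRNA and 1762 with HAND1 sgRNA. With HAND1 sgRNA KIT fell from a mean of 209 to 160 FPKM (log2 −0.38, limma adjusted p = 0.00336). GPR20 (−0.84, limma adjusted p = 1.25e-04), PRKCQ (−0.75, 3.26e-04) and DUSP6 (−1.22, 7.78e-07) fell as well. ANO1, CD34 and ETV1 were above 0 and FOXF1 below it, none of them called. The 8 epithelial markers summed to 205 to 221 FPKM with HAND1 sgRNA and 228 to 266 in the controls, and the 8 neuronal and glial markers to 60.5 to 64.8 and 52.2 to 59.9. Nearly all of these sums was KRT18 (mean 206 against 236 FPKM) and TUBB3 (62.3 against 55.0), and neither was called. The 6 smooth muscle markers summed to 53.8 to 56.9 and 54.2 to 57.1 FPKM, and TAGLN among them rose by 1.24 (log2, limma adjusted p = 0.00193). ACTA2 made up most of the smooth muscle sums, at a mean of 47.1 against 52.1 FPKM, and was not called. The part of these marker levels in the HOX results was not tested.

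HOXB13 had the lowest limma adjusted p of the HOX genes. With HAND1 sgRNA it was at 9.96, 11.5 and 10.3 FPKM, against 17.7, 16.1 and 16.8 with Luciferase sgRNA and 16.5, 17.2 and 15.2 with ETV1 sgRNA. All 3 HAND1 sgRNA libraries lay below all 6 others. In limma HOXB13 fell by 0.63 (log2, SE 0.074, adjusted p = 6.63e-04).

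HOXB9, a gene of thoracic patterning and the next expressed gene of the cluster, was at 5.83, 5.70 and 4.92 FPKM with HAND1 sgRNA, against 8.29, 8.83 and 9.25 with Luciferase sgRNA and 7.35, 8.46 and 9.03 with ETV1 sgRNA. Again the HAND1 sgRNA libraries were below all others. HOXB9 fell by 0.60 (SE 0.092, limma adjusted p = 0.00344).

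HOXA11 was at 61.1, 62.7 and 62.9 FPKM with HAND1 sgRNA, against 85.3, 80.5 and 78.7 with Luciferase sgRNA and 76.6, 83.3 and 84.0 with ETV1 sgRNA. It fell by 0.38 (SE 0.054, limma adjusted p = 0.00208), and the groups with and without HAND1 sgRNA did not overlap. HOXB13, HOXB9 and HOXA11 overlap no other gene in the RefSeq annotation of GRCh38.p14.

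HOXC13, a gene of hair and nail development, was at 5.09, 4.62 and 4.29 FPKM with HAND1 sgRNA, against 6.50, 6.94 and 7.67 with Luciferase sgRNA. It fell by 0.50 (SE 0.105, limma adjusted p = 0.0172). HOXC11 was at 4.98, 7.19 and 6.39 FPKM with HAND1 sgRNA, against 8.61, 9.83 and 8.86, and fell by 0.50 (SE 0.112, limma adjusted p = 0.0251). Both had 3 HAND1 sgRNA libraries below all 3 control libraries. Both calls were lost without HAND1 sgRNA replicate 3 (limma adjusted p = 0.0749 for HOXC13 and 0.0644 for HOXC11) and without Luciferase sgRNA replicate 2 (0.0537 and 0.0938). The call of HOXC13 was also lost without HAND1 sgRNA replicate 2 (0.0603), and that of HOXC11 without HAND1 sgRNA replicate 1 (0.0609), with no filter on low genes (0.0585) and when the ETV1 sgRNA libraries were left out of the fit (0.0604). HOXC11 overlaps HOTAIR, a non-coding transcript of the opposite strand, which was at 9.37 ± 1.57 FPKM with Luciferase sgRNA and 9.46 ± 0.906 with HAND1 sgRNA (SD, n = 3; limma log2 0.02, adjusted p = 0.947). HOXC13 overlaps HOXC13-AS, listed as HOXC-AS5 at a mean of 0.499 FPKM.

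**Figure D2:**
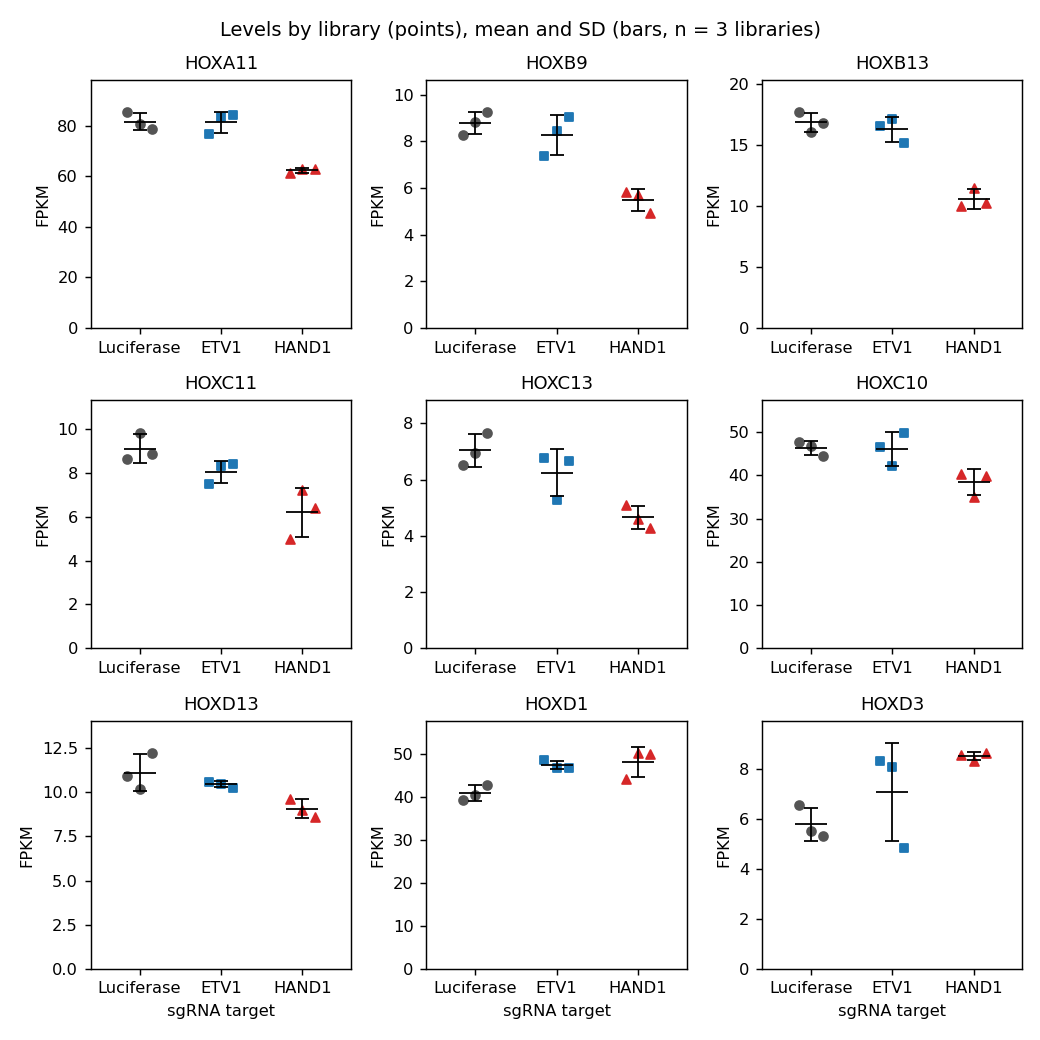
FPKM of 9 HOX genes in each library (points) by sgRNA target, with the mean and SD of the 3 libraries of a group (bars); each axis starts at 0. HOXA11, HOXB9 and HOXB13 are lower in all 3 HAND1 sgRNA libraries than in the 6 others, and HOXD1 is higher in all 6 libraries with ETV1 or HAND1 sgRNA than in the 3 with Luciferase sgRNA.

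HOXA11 was the one gene of these 5 with an entry in the RefSeq promoter table, which held 20 of the 38 members. Its start faces that of HOXA11-AS, a non-coding gene of the opposite strand, with 175 bases between the starts. HOXA11-AS was at 20.0, 23.5 and 20.7 FPKM with HAND1 sgRNA, against 31.1, 32.1 and 34.8 with Luciferase sgRNA and 31.8, 31.1 and 33.3 with ETV1 sgRNA. It fell by 0.59 (log2, SE 0.070, limma adjusted p = 7.03e-04), so both transcripts of this divergent pair were lower. The 250 bases before 3 HOX starts are given from 5′ to 3′ on the strand of the gene, to show what letters a bHLH factor could meet at a gene that fell (HOXA11), at one that was lower without a call (HOXD13) and at one that was higher without a call (HOXD1). Capitals mark the E-box CANNTG, the hexamer that bHLH dimers bind, which reads the same on both strands.
HOXA11, chr7:27185233-27185482, minus strand, GRCh38.p14: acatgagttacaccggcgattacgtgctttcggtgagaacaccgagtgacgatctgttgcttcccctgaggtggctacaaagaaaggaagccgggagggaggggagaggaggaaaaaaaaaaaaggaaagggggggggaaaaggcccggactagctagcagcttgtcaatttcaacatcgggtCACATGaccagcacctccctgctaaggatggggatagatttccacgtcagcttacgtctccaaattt
HOXD13, chr2:176092471-176092720, plus strand, GRCh38.p14: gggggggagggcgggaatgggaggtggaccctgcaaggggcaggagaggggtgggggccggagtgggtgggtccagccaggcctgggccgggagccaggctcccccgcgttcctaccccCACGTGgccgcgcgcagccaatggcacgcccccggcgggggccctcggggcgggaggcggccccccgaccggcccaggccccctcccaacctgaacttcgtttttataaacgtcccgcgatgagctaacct
HOXD1, chr2:176188418-176188667, plus strand, GRCh38.p14: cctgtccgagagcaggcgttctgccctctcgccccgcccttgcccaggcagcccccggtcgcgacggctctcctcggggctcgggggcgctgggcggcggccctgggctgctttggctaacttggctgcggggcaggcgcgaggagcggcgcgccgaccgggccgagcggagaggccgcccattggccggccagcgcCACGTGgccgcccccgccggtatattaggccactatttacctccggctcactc
Each window held 1 E-box, CACATG before HOXA11 and CACGTG before HOXD13 and HOXD1. Of all 35116 promoter windows of this length in the table, 61.8% held at least 1 CANNTG, so its presence does not set these genes apart. The hexamer CATCTG, read on the opposite strand as CAGATG, which HAND proteins can bind with their partners, was in 0 of the 3 windows and in 12.2% of all windows. Other sequences that HAND proteins may bind were not searched for, so their absence from these windows is not shown. The E-box and hexamer matches are matches of letters and not binding sites. The coordinates are of GRCh38.p14, whereas the submitters' notes name hg19.

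When the tested HOX genes were ordered by position, those of positions 9 to 13 were lower with HAND1 sgRNA and those of positions 1 to 8 were mixed. All 10 tested genes of positions 9 to 13 had a log2 difference below 0, with a median of −0.33, and 5 of them fell. Of the 14 tested genes of positions 1 to 8, 9 were below 0 and 5 above, with a median of −0.08, and 0 were called (3 had an unadjusted p under 0.05). Over all genes tested the median was −0.01, and 53.9% were below 0. With ETV1 sgRNA 9 of the 10 genes of positions 9 to 13 were also below 0, with a median of −0.06 and 0 called. Of positions 1 to 8, 6 were below 0 and 8 above (median 0.02), against 53.1% below 0 over all genes. Both comparisons use the same 3 Luciferase sgRNA libraries. Between HAND1 and ETV1 sgRNA, 9 of the 10 were below 0, with a median of −0.30 and 3 called. This division by position was chosen after the values were seen, and no test was made of it.

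The summed levels are made of the same values, so they give no separate evidence of the division by position. HOXA11 and HOXC10 weigh most in the sum of positions 9 to 13. For the 16 genes of positions 9 to 13 the sum was 147 ± 1.55 FPKM in the HAND1 sgRNA libraries, 189 ± 6.62 in the ETV1 sgRNA libraries and 194 ± 3.20 in the controls (SD over 3 libraries). The 22 genes of positions 1 to 8 summed to 176 ± 5.74, 183 ± 3.45 and 172 ± 1.96 FPKM in the same order. By cluster, HOXA summed to 100.2 ± 4.14 FPKM with Luciferase sgRNA and 78.3 ± 0.922 with HAND1 sgRNA, HOXB to 79.1 ± 3.15 and 61.9 ± 1.33, and HOXC to 88.6 ± 2.77 and 72.9 ± 1.63. HOXD was the exception, with 98.1 ± 1.56 and 109.5 ± 4.77 FPKM. The mean HOXD sum was also above that of the controls with ETV1 sgRNA, at 106.5 ± 6.12 FPKM. The lowest of these ETV1 sgRNA sums was 100.2 FPKM, and the highest control sum was 99.9. Both differences use the same Luciferase sgRNA libraries, and the sums were not tested. The other sums with ETV1 sgRNA were 99.3 ± 5.62 FPKM for HOXA, 79.0 ± 4.05 for HOXB and 86.7 ± 6.20 for HOXC.

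**Figure D3:**
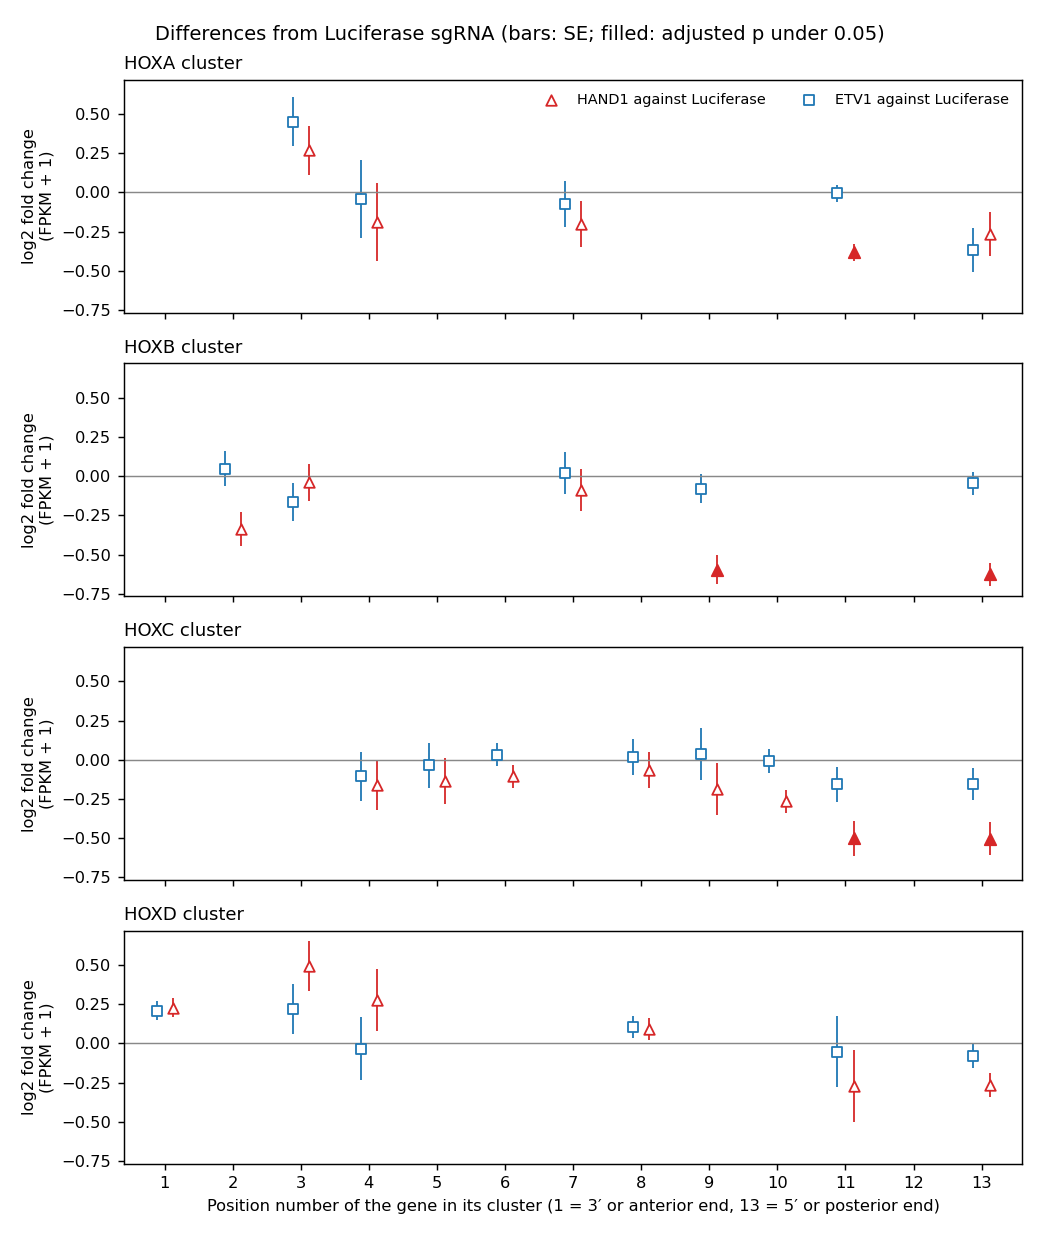
Difference from Luciferase sgRNA on the log2(FPKM + 1) scale for the 24 tested HOX genes, by position number; triangles are HAND1 sgRNA, squares ETV1 sgRNA, bars the SE, and filled symbols have an adjusted p under 0.05. The 5 filled triangles are HOXA11, HOXB9, HOXB13, HOXC11 and HOXC13, from −0.38 to −0.63, and no square is filled.

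The other 5 posterior genes tested were lower without passing the test. HOXC10 was at 40.4, 35.0 and 39.9 FPKM with HAND1 sgRNA, against 47.7, 46.8 and 44.5 with Luciferase sgRNA (log2 −0.27, SE 0.075, limma adjusted p = 0.0673). HOXD13, a gene of the digits and the end of the gut, was at 9.64, 8.98 and 8.60 FPKM, against 10.9, 10.2 and 12.2 (−0.26, limma adjusted p = 0.0741). Neither pair of groups overlapped, nor did that of HOXA13 at −0.27 (limma adjusted p = 0.320). HOXD11 was at −0.27 (limma adjusted p = 0.560) and HOXC9 at −0.19 (0.595), with overlapping groups. In HOXC9 the value of HAND1 sgRNA replicate 3 was 3.75 FPKM, against 6.83 and 6.61 in replicates 1 and 2, and HOXC4 was also lowest in that library, at 2.49 FPKM.

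The anterior genes of the HOXD cluster lay on the other side. HOXD1 was at 44.1, 50.2 and 50.0 FPKM with HAND1 sgRNA, against 39.3, 40.5 and 42.8 with Luciferase sgRNA (log2 0.23, SE 0.062, limma adjusted p = 0.0568). All 3 values were above all 3 controls, and the difference was called in limma without Luciferase sgRNA replicate 3 (0.26, adjusted p = 0.0394), without HAND1 sgRNA replicate 1 (0.29, 0.0251), with median centring (0.25, 0.0249) and with quantile normalization (0.26, 0.0209). HOXD3 was at 8.58, 8.35 and 8.65 FPKM, against 6.54, 5.52 and 5.32 (0.49, SE 0.160, limma adjusted p = 0.105). It was called when the ETV1 sgRNA libraries were left out of the fit (limma adjusted p = 0.0189) and without ETV1 sgRNA replicate 3 (0.00839), the library in which HOXD3 was lowest at 4.82 FPKM. HOXD4 (0.28, limma adjusted p = 0.483) and HOXD8 (0.09, limma adjusted p = 0.512) were above 0 with overlapping groups, so 4 of 6 tested HOXD genes were above 0. With ETV1 sgRNA HOXD1 (0.21), HOXD3 (0.22) and HOXD8 (0.11) were also above Luciferase sgRNA, and HOXD4 was at −0.03, none of them called. Between HAND1 and ETV1 sgRNA HOXD1 differed by 0.02, HOXD8 by −0.01, HOXD3 by 0.27 and HOXD4 by 0.31, again without a call. Mean HOXD1 and HOXD8 levels were thus above Luciferase sgRNA with both sgRNAs, without a call in either comparison. Both comparisons use the same 3 Luciferase sgRNA libraries, so they are not separate observations of a rise.

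Among the other anterior genes, HOXB2 was at 20.8, 23.1 and 26.7 FPKM with HAND1 sgRNA, against 30.3, 29.9 and 29.4 (log2 −0.34, SE 0.111, limma adjusted p = 0.109). Its groups did not overlap, and without ETV1 sgRNA replicate 2, where HOXB2 was highest at 37.0 FPKM, limma gave an adjusted p of 0.0468. HOXA7 also had all 3 HAND1 sgRNA values (10.4 to 11.2) below the control values (11.99 to 13.1), at a log2 difference of −0.20 (limma adjusted p = 0.487). HOXA3 was at 0.27 (limma adjusted p = 0.384). HOXA4, HOXB3, HOXB7, HOXC4, HOXC5, HOXC6 and HOXC8 lay between −0.19 and −0.04, each with overlapping groups. In all, 12 of the 24 tested HOX genes had values that did not overlap between HAND1 and Luciferase sgRNA, 10 lower and 2 higher, where 25.7% of all genes tested did not overlap. An unadjusted p under 0.05 was reached by 10 of 24, against 20.3% of all genes tested.

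With ETV1 sgRNA no HOX gene passed the test, and HOXD1, HOXA3 and HOXA13 came nearest to it. Of 24 tested, limma called 0 (3 had an unadjusted p under 0.05, where 8.20% of all genes did), and it called 0.203% of all genes tested, 23 in number. The median over the HOX genes was −0.03, and over all genes −0.01. Groups did not overlap for 5 HOX genes, against 12.9% of all genes tested. The 6 smooth muscle markers, of which 3 had a mean of at least 1 FPKM, summed to 79.4 to 86.2 FPKM with ETV1 sgRNA and 54.2 to 57.1 in the controls. Most of this was ACTA2, at a mean of 79.1 FPKM with ETV1 sgRNA and 52.1 in the controls (log2 0.59, limma adjusted p = 0.00120). The part of these marker levels in the HOX levels was not tested. HOXD1 was at 48.5, 46.8 and 46.8 FPKM, above all 3 control values (log2 0.21, 95% interval 0.07 to 0.35, limma adjusted p = 0.370). HOXA3 was at 1.31, 2.12 and 1.76 FPKM, against 1.29, 0.841 and 0.844 (0.45, limma adjusted p = 0.474), and HOXA13 at 0.996, 1.79 and 1.17, against 2.08, 1.96 and 1.84 (−0.37, limma adjusted p = 0.503).

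For the 5 genes that fell with HAND1 sgRNA, the differences with ETV1 sgRNA were small and are given with their 95% intervals. HOXA11 was at −0.00 (−0.12 to 0.12), HOXB13 at −0.05 (−0.21 to 0.12) and HOXB9 at −0.08 (−0.28 to 0.12). HOXC11 was at −0.16 (−0.41 to 0.09), with all 3 values below the controls, and HOXC13 at −0.15 (−0.39 to 0.08). The intervals of HOXA11 and HOXB13 reach no further than −0.12 and −0.21, whereas their falls with HAND1 sgRNA were 0.38 and 0.63. Both comparisons use the same 3 Luciferase sgRNA libraries, so the difference between the sgRNAs was tested directly.

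Between HAND1 sgRNA and ETV1 sgRNA, limma called 3 of 24 HOX genes, all lower with HAND1 sgRNA, where it called 4.05% of all genes tested (2.01% higher and 2.04% lower). HOXB13 differed by −0.58 (log2, SE 0.074, limma adjusted p = 0.00152), HOXA11 by −0.38 (SE 0.054, limma adjusted p = 0.00298) and HOXB9 by −0.52 (SE 0.092, limma adjusted p = 0.0101). These 3 were called in all 18 alternatives, as they were against Luciferase sgRNA. HOXB2 (−0.38, limma adjusted p = 0.0983), HOXC10 (−0.26, 0.102), HOXC13 (−0.35, 0.111), HOXC11 (−0.34, 0.150) and HOXD13 (−0.19, 0.273) were lower in all 3 HAND1 sgRNA libraries than in all 3 ETV1 sgRNA libraries without being called. HOXC13 was called without ETV1 sgRNA replicate 2 (limma adjusted p = 0.0494). HOXD1 did not separate the sgRNAs (0.02, 95% interval −0.12 to 0.16). Over the 24 genes 9 did not overlap between the groups, against 22.4% of all genes tested.

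The remaining 14 HOX genes had a mean below 1 FPKM and were not tested. HOXB5 (0.372 to 1.18 FPKM) and HOXB6 (0.503 to 1.23) lay just below the limit, and HOXA3, at a mean of 1.37, was the lowest of those tested. HOXA10, at 0.601, 0.776 and 0.298 FPKM with Luciferase sgRNA and 0.262, 0.200 and 0.328 with HAND1 sgRNA, had overlapping groups. HOXA9 was listed between 0.0559 and 0.152 FPKM in the 3 HAND1 sgRNA libraries and at most at 1.70e-04 in the other 6. Its transcripts are shared with the readthrough gene HOXA10-HOXA9, so this value is uncertain. HOXA5 was listed at 0 in all 3 HAND1 sgRNA libraries and between 0.0809 and 0.623 FPKM in the others. HOXA2, HOXA6, HOXB4, HOXB8, HOXC12, HOXD9, HOXD10 and HOXD12 stayed below 0.886 FPKM in every library, and HOXB1 was listed at 0 throughout. An entry of 0 in this table can be a failed estimate, and levels this low rest on few reads.

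HOX proteins act with TALE homeodomain partners, and several of these changed with HAND1 sgRNA. Of 7 TALE genes described 3 rose, 1 fell and 3 were not called, where 3.67% of all genes tested rose and 2.93% fell (median log2 0.07, against −0.01 over all genes). MEIS1, a partner of posterior HOX proteins, was at 37.4, 33.6 and 36.1 FPKM with HAND1 sgRNA, against 29.1, 27.8 and 28.3 with Luciferase sgRNA (0.32, limma adjusted p = 0.0180). PBX3 (0.47, limma adjusted p = 0.0306) and PKNOX2 (0.31, 0.0451) rose, and TGIF1, a TALE repressor, fell by 0.38 (limma adjusted p = 0.0299). None of these 4 calls held in all alternatives: that of MEIS1 held in 15 of 18, that of TGIF1 in 12 of 18, that of PBX3 in 9 of 17 and that of PKNOX2 in 6 of 18. Without HAND1 sgRNA replicate 1 or Luciferase sgRNA replicate 2 limma called 0 of the 7, without HAND1 sgRNA replicate 2 or 3 or Luciferase sgRNA replicate 3 it called 1, and without Luciferase sgRNA replicate 1 it called 2. With the replicate block, and with no filter, 1 was called. MEIS2 was at 55.6 ± 1.62 FPKM with Luciferase sgRNA and 58.3 ± 1.91 with HAND1 sgRNA (SD, n = 3; 0.07, limma adjusted p = 0.533). With ETV1 sgRNA limma called 0 of the 7 (0 had an unadjusted p under 0.05), and between the sgRNAs PKNOX2 (0.42, adjusted p = 0.0143) was higher and TGIF1 (−0.52, 0.00820) lower with HAND1 sgRNA. The call of PKNOX2 was lost without ETV1 sgRNA replicate 1 or 3 or any 1 of the HAND1 sgRNA replicates (limma adjusted p from 0.0542 to 0.0626).

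Several genes of the retinoic acid pathway, which induces 3′ HOX genes in the embryo, rose with HAND1 sgRNA. Of 9 tested 5 rose, 0 fell and 4 were not called, CYP26B1 and CRABP2 among them on opposite sides of 0 (median of the 9 on the log2 scale 0.41), where 3.67% of all genes tested rose. ALDH1A2, another enzyme that makes retinoic acid, went the other way: it was at 0.207, 0.262 and 0.370 FPKM with HAND1 sgRNA, against 1.43, 1.14 and 1.05 with Luciferase sgRNA and 1.12 to 1.59 with ETV1 sgRNA. Its HAND1 sgRNA values lay below all others, and its mean of 0.945 FPKM missed the limit for testing because of them. RDH10, which makes retinaldehyde from retinol, was at 23.2 to 24.2 FPKM in the 3 libraries, against 14.5, 13.9 and 15.3 with Luciferase sgRNA (0.67, limma adjusted p = 2.03e-04). ALDH1A3, which makes retinoic acid from retinaldehyde, was at 15.9 to 16.8 FPKM, against 8.60, 9.60 and 10.8 (0.69, limma adjusted p = 7.53e-04). DHRS3, which returns retinaldehyde to retinol, rose by 0.52 (limma adjusted p = 0.00401), STRA6, a retinol transporter, by 0.35 (0.00563) and RARA, a retinoic acid receptor, by 0.41 (0.0193). The calls of RDH10, ALDH1A3, DHRS3 and STRA6 held in all 18 alternatives, and that of RARA in 15; leaving out Luciferase sgRNA replicate 2 (limma adjusted p = 0.0753), HAND1 sgRNA replicate 2 (0.0760) or HAND1 sgRNA replicate 3 (0.0719) ended it. With ETV1 sgRNA limma called 0 of the 9, and 4 had an unadjusted p under 0.05, against 8.20% of all genes tested, RDH10 among them at 0.37 (adjusted p = 0.0788). Between the sgRNAs ALDH1A3 (0.49, limma adjusted p = 0.00859), RDH10 (0.30, 0.0321) and RARA (0.37, 0.0453) were higher with HAND1 sgRNA, where 2.01% of all genes tested were. The call of ALDH1A3 held in all 18 alternatives. That of RDH10 held in 13 and was lost without ETV1 sgRNA replicate 1 or 2 or any 1 of the HAND1 sgRNA replicates (limma adjusted p from 0.0812 to 0.122). That of RARA held in 8: it was lost with the replicate block (0.0661), with no filter (0.0797), when the Luciferase sgRNA libraries were left out of the fit (0.0631) and without ETV1 sgRNA replicate 1 or 2, Luciferase sgRNA replicate 1 or 2 or any 1 of the HAND1 sgRNA replicates (0.0615 to 0.147). Without ETV1 sgRNA replicate 1 limma called 1 of the 9.

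**Figure D4:**
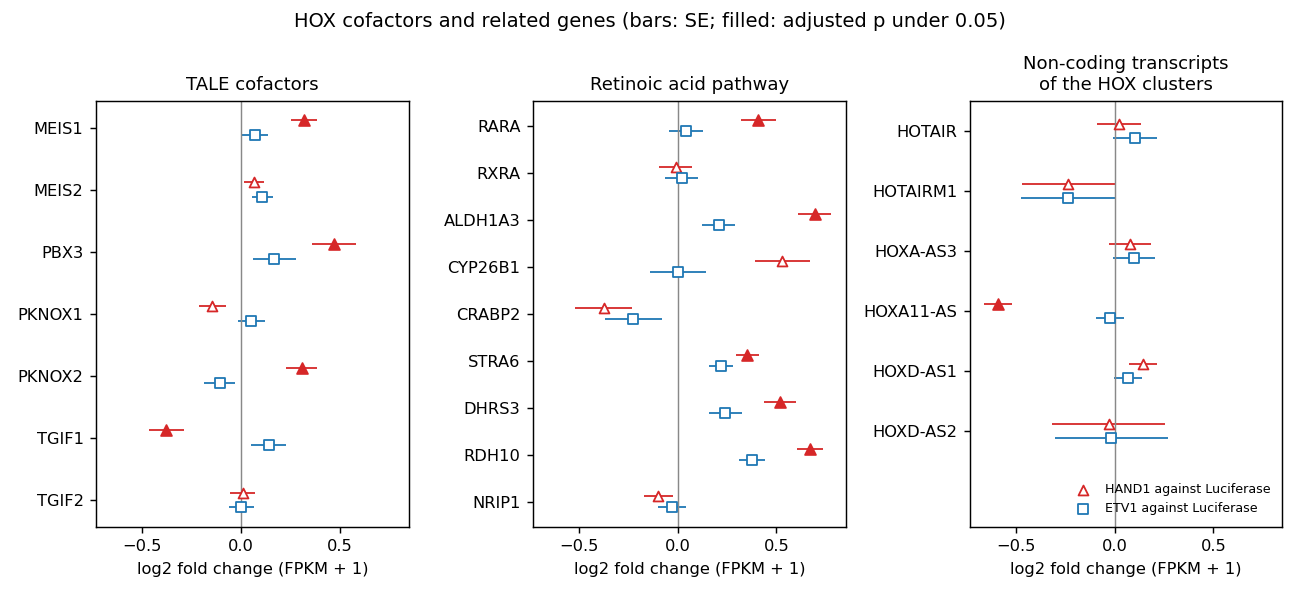
Difference from Luciferase sgRNA on the log2(FPKM + 1) scale for TALE cofactors (7 genes), retinoic acid pathway genes (9) and non-coding transcripts of the HOX clusters (6); triangles are HAND1 sgRNA, squares ETV1 sgRNA, bars the SE, and filled symbols have an adjusted p under 0.05. RDH10 (0.67) and ALDH1A3 (0.69) lie farthest to the right with HAND1 sgRNA, HOXA11-AS (−0.59) farthest to the left, and no square is filled.

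Of 6 tested non-coding transcripts of the clusters, HOXA11-AS alone was called with HAND1 sgRNA. HOXD-AS1 was at 19.2 ± 1.91 FPKM with Luciferase sgRNA and 21.2 ± 0.262 with HAND1 sgRNA (SD, n = 3; log2 0.14, limma adjusted p = 0.284). HOXA11-AS also differed between the sgRNAs (−0.57, limma adjusted p = 0.00134), and limma called 0 of the 6 with ETV1 sgRNA, where 0 had an unadjusted p under 0.05.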

How the data were processed

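The authors deposited one table of FPKM values, with 1 value per gene symbol and library; per the submitters' processing notes STAR, Cufflinks and hg19 were used. The annotation, filters and library scaling: not given in the sources used here. Per the labels' protocols the library kit (NEBNext Ultra II) was not stranded. FPKM are not counts, so no count model was applied. Values below 1e-06 were read as 0. Read depth is unknown in absolute terms; from the steps between low values (most frequent log2 ratio, bins of 0.01) it ranged from 0.636 to 1 relative to Luciferase sgRNA replicate 1.

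The 11348 genes whose mean over all libraries reached 1 FPKM were fitted on log2(FPKM + 1) in limma (version 3.58.1, R 4.3.3); the model held the sgRNA group, all 9 libraries and an intensity trend (6 residual and 4.15 prior degrees of freedom). Intervals use the same degrees of freedom. Of the 3 comparisons made, 2 share the Luciferase sgRNA libraries. The fit was tested on simulated data. Alternatives were pseudocounts of 0.1 and 5, a minimum mean of 5 FPKM, no filter, quantile normalization, centring of each library on its median (genes of 10 FPKM or more), no trend, only the 2 groups compared, the replicate block and each library left out.

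The HOX members and the gene lists were chosen with earlier results of these data known. Named genes are the HOX members, the targeted genes and, from each other list, up to 4 called members, or 2 abundant ones where none was called. CYP26B1, CRABP2, ALDH1A2, HOTAIR and HOXC-AS5 were added after their values were seen. So were the marker genes named singly, TAGLN among them. Overlaps between genes and promoter sequences come from RefSeq (GRCh38.p14). One gene that the rule matched and 1 gene of the other lists are not reported here.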

Additional observations from a re-analysis of the deposited data

How the results depend on the processing

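Over 18 alternatives, limma called 0 HOX genes with ETV1 sgRNA in each. Against Luciferase sgRNA, the count with HAND1 sgRNA was 5. It ranged from 3 to 6 when a library was left out and from 4 to 6 otherwise. The count was 3 without HAND1 sgRNA replicate 3 or Luciferase sgRNA replicate 2. It was 6 without Luciferase sgRNA replicate 3 (the 5 and HOXD1). It was also 6 without ETV1 sgRNA replicate 2 (the 5 and HOXB2) or ETV1 sgRNA replicate 3 (the 5 and HOXD3). Of 90 recomputed values of the 5 called genes 82 kept direction and call, 8 lost the call (HOXC11 and HOXC13) and 0 changed direction. Between the sgRNAs the count was 3, and 3 to 4 with a library left out. Differences of HOX genes that were not called are less settled: 28 of 424 recomputed values changed sign with ETV1 sgRNA, 7 of 334 with HAND1 sgRNA and 11 of 370 between the sgRNAs. Over all genes the count with a library left out was 11 to 28 for ETV1 sgRNA (main 23; 14 with only the 2 groups compared), 433 to 729 for HAND1 sgRNA (749) and 271 to 592 between the sgRNAs (460). The labels do not say whether equal replicate numbers pair the libraries. The deviations of same-numbered libraries correlated between −0.146 and 0.138, and those of different-numbered libraries between −0.126 and 0.196. With so few libraries these values show no pairing but cannot exclude one. With the replicate block the HOX counts were 0, 5 and 3, equal to those without it. With no counts deposited, the depth behind the HOX genes below 1 FPKM could not be judged.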

Other observations

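Of 28 tested Polycomb group genes, which hold HOX clusters silent, limma called 0 in each of the 3 comparisons (with an unadjusted p under 0.05 for 1 with ETV1 sgRNA, 4 with HAND1 sgRNA and 2 between the sgRNAs); the most abundant were RBBP7, a histone-binding subunit, at a mean of 158 FPKM, and PHC2, a subunit of the other Polycomb complex, at 95.2. Of 22 tested trithorax and MLL complex genes AFF1, an elongation factor, was the only one called, and 1 of 22 is no larger a share than the 6.60% called over all genes. It fell by 0.30 (log2, limma adjusted p = 0.0300) with HAND1 sgRNA, from 23.4 ± 1.63 to 18.8 ± 0.975 FPKM (SD, n = 3), and the call held in 11 of 18 alternatives. It was lost without each of the HAND1 sgRNA libraries (limma adjusted p = 0.0722, 0.111 and 0.0634 without replicates 1, 2 and 3), without Luciferase sgRNA replicates 1 and 2 (0.0932 and 0.0991), with median centring (0.0664) and with only the 2 groups compared (0.0591).

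Of 17 ParaHox, DLX and flanking genes 7 had a mean of at least 1 FPKM and limma called 0 of them in each comparison (0, 2 and 1 had an unadjusted p under 0.05 with ETV1 sgRNA, with HAND1 sgRNA and between the sgRNAs). DLX1, which lies on the chromosome of the HOXD cluster, was the highest at 7.78 FPKM, and DLX6, a distal-less homeobox gene, was at 3.70 FPKM.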
